A study of Mus musculus with 6 samples.

Results

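The circRNAs described here come from 9 genes of focal adhesions and LIM domain scaffolds, Pdlim5, Lpp, Sorbs2, Tns1, Tns3, Vcl, Fermt2, Tln2 and Ptk2. Every entry of the deposited circRNA table whose host gene is one of these 9 was taken, after Ensembl identifiers had been turned into gene symbols, and exonic entries of the same strand and end with starts 1 base apart were summed. This gave 64 of the 10023 entries, 57 of the 9548 circles after summing, and 9 of the 3981 host genes. RNA came from the aortas of male ApoE-/- mice on the C57BL/6 strain, 6 weeks old when the diets began. For 12 weeks, until 18 weeks of age, mice ate a high-fat diet (HFD) with added cholesterol and cholic acid, or a normal diet (ND), with 3 aortas sequenced for each diet, and both groups lacked ApoE. Per the study's methods, ribosomal RNA was depleted from total RNA for the libraries. The methods name RNase R for isolating circRNA, but not among the library steps. Each circle was counted by the reads that cross its back-splice, the join of a downstream exon end to an upstream exon start. The aorta labels number the samples 1 to 3 within each diet, and p-values measure the spread between these samples.

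Focal adhesions are the plaques at which integrins, the receptors for extracellular matrix, are tied to the actin cytoskeleton. Talin and kindlin bind the integrin tail, vinculin strengthens the tie to actin, tensins hold the longer-lived adhesions, LIM domain proteins act as scaffolds that sense tension, and focal adhesion kinase relays the signal. In the wall of the aorta, smooth muscle cells use these plaques to carry the load of each pulse. A circle cut from such a gene is counted apart from its linear mRNA and says nothing of the protein.

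The libraries held 4694, 5621 and 4875 back-spliced reads in HFD replicates 1, 2 and 3, against 7585, 7142 and 7476 in ND replicates 1, 2 and 3. Every HFD library was thus shallower than every ND library. The 9 genes had 41, 48 and 35 reads under HFD against 58, 51 and 69 under ND, 302 of 37393 reads in all. As a share of each library's back-spliced reads this was 0.815% ± 0.0847 on the HFD and 0.801% ± 0.109 on the ND (SD, n = 3 each), so the summed share of the 9 genes differed by less than the spread between aortas. Most of their circles were rare. Of the 57, 33 had reads in a single aorta (57.9%, against 72.3% of all circles), 23 had 1 read, and 10 had at least 10 reads over the 6 aortas (17.5%, against 7.04% of all circles). Reads were found in both diets for 18 circles, on the HFD alone for 16 and on the ND alone for 23. Among circles with reads in at least 2 aortas, 3 of the 24 member circles were at 0 on the HFD and 3 at 0 on the ND, against 451 and 167 of 2646 in the table.

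Counts were compared between the diets with edgeR's quasi-likelihood test over the whole table, for circles and, separately, for host genes with all their circles summed, where at least 2 of the 6 aortas had reads. A circle or gene was called when its unadjusted p was under 0.05 and its absolute log2 fold change above 1. Normalized reads are counts scaled to a common effective library size. Of the 24 member circles tested, 1 was called, from Pdlim5 and higher on the HFD, against 90 of 2646 circles in the table (3.4%). This circle, circRNA8112, passed the filter through HFD aortas alone. Of the 8 member genes tested, 1 was called, Ptk2, which was lower on the HFD, against 100 of 2240 host genes (4.46%). Both shares of the members rest on 1 call each and cannot be set apart from that background. After Benjamini-Hochberg adjustment over all features in edgeR, no member circle or gene had an adjusted p under 0.05, where the table had 2 circles (0.0756%) and 4 host genes (0.179%). At the call criteria DESeq2 gave 0 member circles, against 21 of 2646 in the table, and 2 member genes, against 34 of 2240. limma gave 2 member circles, against 105 of 2646 in the table. The smallest adjusted p from edgeR was 0.29 among member circles and 0.67 among member genes. Judged on normalized reads, the diets did not overlap for 2 of the 24 member circles, against 7.26% of the circles tested, and for 1 of the 8 member genes, against 9.55% of the genes tested. The median log2 fold change of the 8 member genes was -0.27 and that of all 2240 genes was -0.17. With genes absent from a diet set to their lower bound, the median of all genes was 0 and that of the members, none of which was absent from a diet, stayed at -0.27. For the 24 member circles it was -0.25 and for all 2646 circles -0.13, and with circles absent from a diet set to their lower bound both medians were 0. The calls in the table were 28 higher and 62 lower for circles and 38 higher and 62 lower for genes. When libraries were scaled by size alone rather than by TMM, the splits were 37 higher against 38 lower and 47 higher against 42 lower, and the medians moved to 0.019 for circles and 0.019 for genes. The aorta was taken whole, so that fewer cells of a type and less circular RNA per cell cannot be told apart in any value given here.

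**Figure D1:**
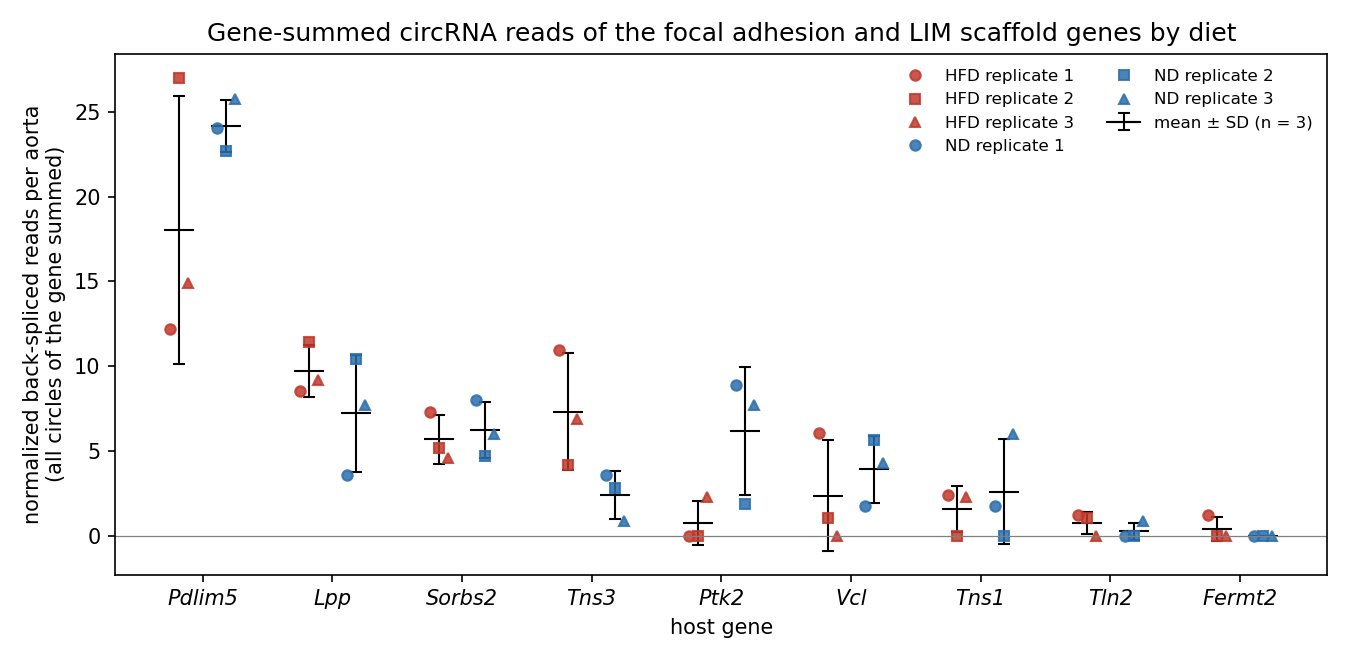
Normalized back-spliced reads per aorta (vertical axis) of each member gene (horizontal axis), all circles of the gene summed, with HFD aortas in red, ND aortas in blue, horizontal bars for means and whiskers for the SD over 3 aortas of a diet. Tns3 is the only gene of the 9 whose diets do not overlap, while for Ptk2 HFD replicate 3 (2.29) lies above ND replicate 2 (1.89).

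Pdlim5 encodes a scaffold with a PDZ domain and LIM domains that binds alpha-actinin and protein kinase C. It had the most back-spliced reads of the 9 genes, 130 over 12 circles, and ranked 25 among the host genes of the table. Its circles had 10, 26 and 13 reads in HFD aortas 1, 2 and 3 against 27, 24 and 30 in ND aortas 1, 2 and 3. HFD replicates 1 and 3 lay under all ND aortas, and HFD replicate 2 lay among them in reads and above them in normalized reads (27.0 against at most 25.8). In normalized reads this was 18.0 ± 7.89 on the HFD and 24.2 ± 1.53 on the ND (SD, n = 3 each), and the spread was wider on the HFD. Pdlim5 was not called, with a log2 fold change of -0.41 (standard error 0.38) and an adjusted p of 0.91 in edgeR's quasi-likelihood test with Benjamini-Hochberg adjustment. In fits without 1 aorta it ranged from -0.75 (without HFD replicate 2) to -0.093 (without HFD replicate 1), and neither was called.

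The most abundant circle of Pdlim5, circRNA1762, joins exon 9 back to exon 8 of the long transcript on the minus strand at chr3:142259130-142278001 (GRCm38) and had 4, 9 and 1 reads under HFD against 10, 11 and 11 under ND. All HFD aortas had fewer reads than any ND aorta, but in normalized reads HFD replicate 2 lay among the ND aortas. The log2 fold change of circRNA1762 was -0.83 (standard error 0.66, unadjusted p = 0.21), and it met the call criteria in 1 of 15 alternative fits, without HFD replicate 2 (-1.71). Without HFD replicate 3 the value was -0.41 (unadjusted p = 0.546). circRNA3954, from exon 4 to exon 8 at chr3:142277817-142314448, had 4, 3 and 2 reads under HFD against 5, 6 and 8 under ND when its entries 1 base apart were summed. Its highest HFD aorta was 1 read under its lowest ND aorta, and in normalized reads HFD replicate 1 lay above ND replicate 1. The fit gave -0.67 on the log2 scale (standard error 0.84, unadjusted p = 0.42). mmu_circ_0010501, from exon 3 to exon 8 at chr3:142277817-142352885, had 2, 0 and 1 reads under HFD against 3, 2 and 5 under ND, a ratio of 0.39 with a 95% counting interval from 0.069 to 1.52. The interval holds 1, so no difference was detectable at this depth. The fitted log2 fold change of mmu_circ_0010501, -1.22, was -2.17 without HFD replicate 1 and -0.78 without HFD replicate 2, and it was called in none of 15 alternative fits (unadjusted p from 0.175 upward). Such intervals cover counting error only. circRNA1764, from exon 6 to exon 8 at chr3:142277817-142304469, had 0, 1 and 1 reads against 2, 5 and 1, which is at or under 3 reads per aorta on average in both diets, and no fold is given.

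circRNA8112, with its reads on the HFD alone, spans chr3:142303944-142314448 on the minus strand and had 0, 8 and 6 reads in HFD aortas 1, 2 and 3 against 0, 0 and 0 in ND aortas 1, 2 and 3. Its reads came from HFD replicates 2 and 3, while HFD replicate 1 was at 0 like the ND group, so the diets overlapped (two-sided exact permutation test on normalized reads, p = 0.4, where 3 aortas against 3 allow none under 0.1). Set against a floor of 3 reads in each ND library, its mean was at least 1.94-fold higher on the HFD. edgeR gave a log2 fold change of 5.42 (standard error 1.59, unadjusted p = 0.00067, adjusted p = 0.29 after Benjamini-Hochberg). This value rests on the prior count of the fit, since no ND aorta had a read. circRNA8112 passed the filter of reads in at least 2 aortas through HFD aortas alone. Its p-values and its call thus depend on the reads that let it be tested, and no difference is concluded from them. The call was lost with DESeq2 (unadjusted p = 0.14) and without ND replicate 3 (unadjusted p = 0.085). Without HFD replicate 2 or HFD replicate 3, reads remained in 1 aorta and circRNA8112 was not tested. When the circles of Pdlim5 were summed without circRNA8112, a sum chosen after its values were seen and therefore not tested, the reads were 10, 18 and 7 under HFD against 27, 24 and 30 under ND. In normalized reads these sums were 13.1 ± 4.96 on the HFD and 23.8 ± 1.77 on the ND (SD, n = 3 each), and all HFD aortas lay under all ND aortas. Leaving out a circle with reads on the HFD alone lowers only the HFD sums, so no difference is concluded from this separation.

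The Pdlim5 circles reuse a few exon ends. Of the 130 reads, 56 used the end of exon 9 and 51 the end of exon 8 of the long transcript as the downstream end of the join, and 53 used the start of exon 8 and 42 the start of exon 4 as the upstream one. The start of exon 4 is shared by circRNA3954 and circRNA8112, which differ in the exon joined back to it. Exon 4 and the exon at the other end of circRNA8112 occur together in 10 annotated transcripts, in which the circle would hold 4 to 6 exons and 303 to 672 bases. The table lists it with 6 exons, as in a short transcript of 10 exons that ends before the LIM-coding exons, where it would be 378 bases long. Reads across the join do not tell these forms apart. The joins of these 3 circles, those of Pdlim5 with the most reads, are given to show what the counted reads cross, with the last 25 bases before the back-splice in lower case and the first 25 after it in capitals (transcripts of GENCODE on GRCm38, minus strand, read 5′ to 3′).
circRNA8112: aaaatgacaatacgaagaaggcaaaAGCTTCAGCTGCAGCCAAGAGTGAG
circRNA3954: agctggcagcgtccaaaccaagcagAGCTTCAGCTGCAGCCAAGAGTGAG
circRNA1762: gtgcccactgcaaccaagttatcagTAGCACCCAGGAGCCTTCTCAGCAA
circRNA8112 and circRNA3954 carry the same capitals, from the start of exon 4, and all bases of the circles circRNA8112, circRNA3954 and circRNA1762 are coding in the transcripts used.

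**Figure D2:**
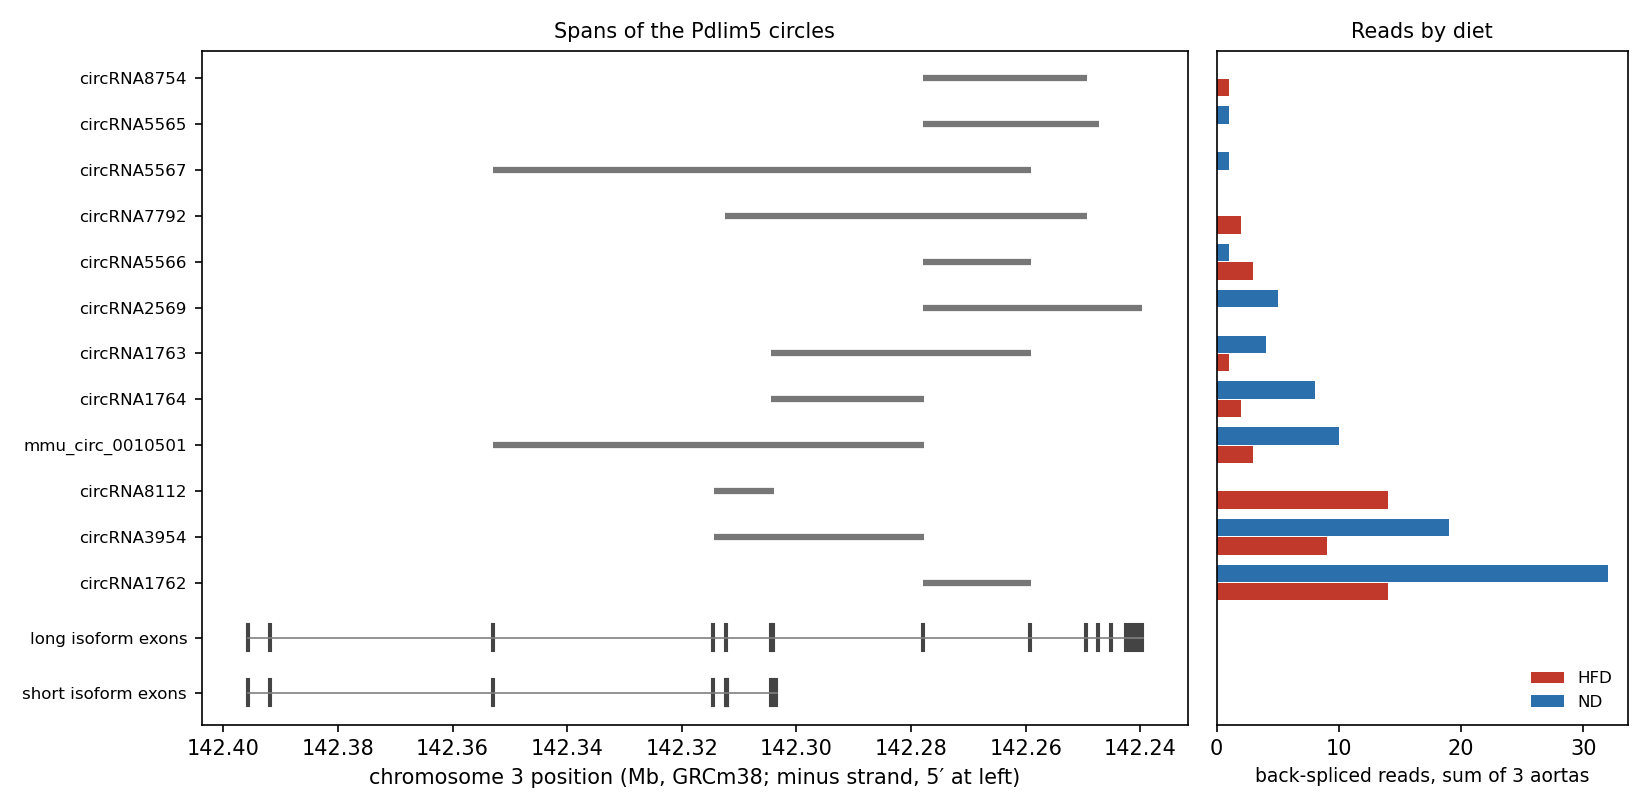
Left, the span of each Pdlim5 circle on chromosome 3 above the exons of a long and a short transcript, with short exons widened to stay visible. Right, back-spliced reads summed over the 3 HFD aortas (red) and the 3 ND aortas (blue), with 14 against 32 for circRNA1762 and 14 against 0 for circRNA8112.

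Lpp encodes a LIM domain protein of the zyxin family that binds alpha-actinin and VASP at adhesions of smooth muscle. Its 13 circles had 7, 11 and 8 reads under HFD against 4, 11 and 9 under ND. The diets overlapped, with ND replicate 1 lowest and HFD replicate 2 and ND replicate 2 level at the top in reads. Normalized reads were 9.71 ± 1.52 and 7.23 ± 3.45 (SD, n = 3 each), and the log2 fold change was 0.43 (standard error 0.59, unadjusted p = 0.47). For Lpp the fits without 1 aorta ranged from 0.11 (without ND replicate 1) to 0.74 (without ND replicate 2), and neither was called. Its leading circle, mmu_circ_0006172, is exon 8 alone, joined to itself at chr16:24761593-24762276 on the plus strand. It was the single circle of 1 exon among the 54 exonic circles of the 9 genes, and its 684 bases are all coding. It had 0, 4 and 2 reads under HFD against 0, 3 and 5 under ND. Replicate 1 of both diets was at 0, and the counts of both diets averaged under 3 reads per aorta. One intronic entry, ciRNA329, is assigned to Lpp but lies on the minus strand, opposite to the gene, and had 2 reads in ND replicate 2.

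The tensins tie actin filaments to the integrin tail in mature adhesions. Tns3 had 3 circles with 9, 4 and 6 reads under HFD against 4, 3 and 1 under ND. In normalized reads the lowest HFD aorta (4.15) lay above the highest ND aorta (3.56), and HFD replicate 1 was the highest. Means were 7.33 ± 3.43 and 2.42 ± 1.40 (SD, n = 3 each), with an exact permutation p of 0.1, the smallest possible. Tns3 was not called, with a log2 fold change of 1.55 (standard error 0.83), an unadjusted p of 0.062 and an adjusted p of 0.67 in edgeR with Benjamini-Hochberg. It met the criteria in 4 of 13 alternative fits, with DESeq2 (1.80), with library size alone (1.74), among genes with at least 10 reads (1.66) and without HFD replicate 2 (1.90). The lowest values among the 9 that did not call it were 1.29 without HFD replicate 1 (unadjusted p = 0.198) and 1.29 without ND replicate 3 (0.122). Of its reads, 21 of 27 came from mmu_circ_0000233, exons 18 to 20 on the minus strand at chr11:8478225-8479665, a circle of 360 coding bases. With its entries summed this circle had 8, 3 and 4 reads under HFD against 3, 3 and 0 under ND. HFD replicate 1 stood above the rest, and HFD replicate 2 and ND replicates 1 and 2 had equal reads, which normalization for depth set apart by a small margin. Its log2 fold change was 1.65 (standard error 0.95, unadjusted p = 0.081), with 0.99 without ND replicate 3 (unadjusted p = 0.178) and 1.07 without HFD replicate 1 (0.367). The join, with the first bases of exon 18 in capitals, is shown because it carries most of the Tns3 reads.
mmu_circ_0000233: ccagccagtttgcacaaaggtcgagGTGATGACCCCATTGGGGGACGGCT
Tns1 had 4 circles with 2, 0 and 2 reads under HFD against 2, 0 and 7 under ND, at or under 3 reads per aorta on average in both diets. ND replicate 3 held most of them. circRNA2028, 12 exons at chr1:73980914-73997104, had 2, 0 and 0 reads against 2, 0 and 6. No fold is given for Tns1.

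Sorbs2 encodes an adaptor with a sorbin homology domain and SH3 domains that binds vinculin. Its 4 circles had 6, 5 and 4 reads under HFD against 9, 5 and 7 under ND. The ranges overlapped, with normalized reads of 5.70 ± 1.43 and 6.25 ± 1.66 (SD, n = 3 each). The log2 fold change was -0.14 (standard error 0.71, unadjusted p = 0.84), and its sign changed with library size alone (0.050), with DESeq2 (0.044) and without HFD replicate 3 (0.045) or ND replicate 1 (0.074). mmu_circ_0014834, exons 7 to 12 at chr8:45759053-45775703, was 1 of 3 member circles with reads in all 6 aortas. It had 3, 5 and 3 reads under HFD against 6, 2 and 2 under ND, with a log2 fold change of 0.49 (standard error 0.94, unadjusted p = 0.60), which was 1.13 without ND replicate 1 and 0.15 without ND replicate 3. ND replicate 1 was the highest aorta in reads, and ND replicates 2 and 3 were the lowest. circRNA6980, 8 exons at chr8:45789976-45805853, had 3, 0 and 0 reads under HFD against 0, 3 and 5 under ND, its entries summed, and no fold is given.

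Vcl encodes vinculin, which binds talin and actin. Its 9 circles had 5, 1 and 0 reads under HFD against 2, 6 and 5 under ND. HFD replicate 1 lay among the ND aortas in reads and above them in normalized reads (6.09 against at most 5.68), and HFD replicate 3 was at 0. Normalized reads were 2.38 ± 3.26 and 3.92 ± 1.97 (SD, n = 3 each), and the log2 fold change was -0.73 (standard error 1.05, unadjusted p = 0.49). Without HFD replicate 1 the value was -2.52 and without HFD replicate 3 it was -0.12, and neither was called. No Vcl circle had 10 reads, and 7 of the 9 had reads in 1 aorta. The leading one, circRNA3348 at chr14:20982574-20987118, had 1, 0 and 0 reads against 0, 3 and 2. Tln2, talin-2, the integrin activator that also binds vinculin, had 2 circles with 3 reads. mmu_circ_0015817, exons 3 to 8 at chr9:67386557-67397683, had 1, 1 and 0 reads under HFD against 0, 0 and 0 under ND, and circRNA5804 had 1 read in ND replicate 3. Fermt2, kindlin-2, which binds the integrin tail beside talin, had 1 read of 1 circle, circRNA6467, in HFD replicate 1, and did not pass the filter. At 1 and 3 reads, a difference between the diets was not detectable for Fermt2 and Tln2.

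Ptk2 encodes focal adhesion kinase, the tyrosine kinase that integrins recruit. Its 9 circles had 0, 0 and 2 reads in HFD aortas 1, 2 and 3 against 10, 2 and 9 in ND aortas 1, 2 and 3. HFD replicates 1 and 2 were at 0, ND replicates 1 and 3 were high, and ND replicate 2 was level with HFD replicate 3, so the diets overlapped. Normalized reads were 0.764 ± 1.32 and 6.18 ± 3.76 (SD, n = 3 each; exact permutation test, p = 0.2). The ratio of the 2 HFD reads to the 21 ND reads, allowing for library size, was 0.12, with a 95% counting interval from 0.0136 to 0.49. This interval pools the aortas of a diet and covers counting error only, not the spread between aortas. edgeR gave a log2 fold change of -2.85 (standard error 1.13, unadjusted p = 0.012), with an adjusted p of 0.67 after Benjamini-Hochberg, so that Ptk2 met the call criteria and failed the adjustment. The call was lost without HFD replicate 2 (unadjusted p = 0.054), without ND replicate 1 (0.091) and without ND replicate 3 (0.081). Without HFD replicate 3, which left the HFD group at 0, the fitted value was -5.69. No single circle held most of the reads. Of the 9 circles, 7 had reads on the ND alone and the other two had 1 read each in HFD replicate 3. The most abundant, circRNA772 at chr15:73391759-73394744 on the minus strand, lies in a Ptk2 transcript in which none of its bases is coding. The table lists it with 3 exons in an entry of 1 read and with 2 exons in its partner circRNA4518, which has 6 reads. It had 0, 0 and 0 reads under HFD against 1, 2 and 4 under ND, its entries summed. All ND aortas were above all HFD aortas, at counts where no fold is given (unadjusted p = 0.064, exact permutation p = 0.1). limma called circRNA772, as did edgeR without ND replicate 3 and among circles with reads in at least 3 aortas. circRNA772 passed the filters through ND aortas alone, so no difference is concluded from these p-values and calls.

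Circles of these genes were often split in the table between an entry named by gene symbol and one named by Ensembl identifier that starts 1 base later. There were 7 such pairs among the members and 475 in the table, and in all 475 the later start carried the identifier. The reads of a member pair never fell in both entries of the same aorta, in 0 of 29 pair and aorta combinations with reads, against 9 of 1672 in the table. For circRNA3954 of Pdlim5, the earlier entry had 0, 0 and 0 reads under HFD against 0, 6 and 8 under ND, and the later one, circRNA2570, had 4, 3 and 2 against 5, 0 and 0. For Tns3, mmu_circ_0000233 itself had 8, 3 and 4 reads under HFD against 0, 0 and 0 under ND, and its partner circRNA2779 had 0, 0 and 0 and then 3, 3 and 0. Each entry on its own thus looked like a circle of fewer aortas than the sum. Taken as deposited, 4 of 26 member entries tested met the call criteria, against 104 of 2564 entries in the table, and the 4 were circRNA3954 and circRNA8112 of Pdlim5, mmu_circ_0000233 of Tns3 and circRNA4579 of Sorbs2. After summing, circRNA8112 alone did. circRNA8112 is itself named by identifier, and its start is 1 base after the annotated exon start at 142303943, with no partner in the table at that position.

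In what the choice of genes did not use, the circles resembled the rest of the table in size. Of the 54 exonic circles, 53 could be built from annotated exons of GENCODE. Their median was 551 bases, from 176 to 2400, against 554 for the 8296 circles built in the table, and the median number of exons was 4 in both. GC content had a median of 53.7% in the members and 47.9% in the table. Circles that begin at exon 2 made up 7.55% of the members, 4 circles, and 28.2% of the table. Circles made of coding bases alone were 67.9% of the members and 79.2% of the table. None of the 53 member circles built held the first or the last exon of its transcript, where 8 and 12 of the 8296 circles in the table did. circRNA2569 of Pdlim5, which could not be built, has its downstream end inside the last exon of the long transcript. Whether bases are coding was read in the transcript used for each circle. These are descriptions without a test, and circles of 1 gene share exons.

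Of 67 other genes of focal adhesions and LIM proteins, 41 had circular reads and 26 were tested. None was called higher, 3 were called lower on the HFD, and 23 were not called, where 38 of all 2240 host genes tested were called higher and 62 lower. The 26 genes had a median log2 fold change of -0.083 against -0.17 for all genes. With genes absent from a diet at their bound, the medians of the list and of all genes were 0. The 3 called genes were also the 3 with the most reads. Itga8, the integrin subunit alpha 8 of smooth muscle, had 7, 14 and 6 reads under HFD against 43, 28 and 41 under ND. All HFD aortas lay under all ND aortas. Its normalized reads, 9.98 ± 4.03 and 33.3 ± 6.13 (SD, n = 3 each), gave a log2 fold change of -1.71 (standard error 0.40) and an adjusted p of 0.0082 in edgeR with Benjamini-Hochberg. Itga8 was called in all 13 alternative fits, with adjusted p-values from 0.0091 to 0.44. Flna, filamin A, an actin crosslinker that binds integrin tails, had 3, 11 and 4 reads against 23, 15 and 17, and the diets did not overlap. Flna had a log2 fold change of -1.28 (standard error 0.52) and an adjusted p of 0.67 in edgeR with Benjamini-Hochberg. Its call was lost with DESeq2 (unadjusted p = 0.052) and without HFD replicate 1 (0.101), HFD replicate 3 (0.0623) or ND replicate 1 (0.0707). Itga9, integrin subunit alpha 9, had 5, 4 and 3 reads against 17, 8 and 13, again without overlap. Its log2 fold change of -1.30 (standard error 0.64, unadjusted p = 0.041) met the criteria in 4 of 13 alternative fits. Among the fits that lost it were those without HFD replicate 2 (unadjusted p = 0.0946), HFD replicate 3 (0.105), ND replicate 1 (0.162) or ND replicate 3 (0.0891). Summed over the 41 genes, normalized reads were 62.4 ± 13.3 on the HFD and 110 ± 9.18 on the ND (SD, n = 3 each), without overlap. Without the 3 called genes, a sum chosen after their values were seen and not tested, the other 38 genes had 41.3 ± 6.08 and 48.6 ± 13.1 (SD, n = 3 each), and the diets overlapped.

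Cell type markers were read as host genes of circles in the same libraries, and their part in the results above was not tested. The smooth muscle list had reads for 10 of 12 genes, with Tagln and Cnn1 at 0, and summed to 24.4, 15.6 and 10.3 normalized reads under HFD and 25.8, 19.9 and 28.3 on the ND. HFD replicates 2 and 3 were the lowest, and HFD replicate 1 lay within the ND range. Its most abundant gene was Myocd, the smooth muscle coactivator, with 11, 9 and 6 reads against 17, 16 and 21, and its diets did not overlap. None of the 7 genes tested on that list was called by edgeR at an unadjusted p under 0.05. The list shares 1 gene, Synpo2, with the focal adhesion list. The fibroblast list had 14 reads in all, with Pdgfra, Col1a2 and Lum at 0, and summed to 3.66, 5.19 and 5.73 normalized reads under HFD and 0, 0 and 0.859 on the ND. Its most abundant gene, Col3a1, was called higher from 0, 5 and 1 reads against 0, 0 and 0, at or under 3 reads per aorta on average (unadjusted p = 0.037). Col3a1 passed the filter through HFD aortas alone, and no difference is concluded from its call. That call was lost in 6 of 10 alternative fits, among them DESeq2 (0.15), exonic circRNAs alone (0.125) and those without ND replicate 1 (0.0788), ND replicate 2 (0.101) or ND replicate 3 (0.0768). Without HFD replicate 2 or 3 Col3a1 was not tested. The macrophage and leukocyte list had reads for 8 of 10 genes and summed to 9.75, 15.6 and 11.5 against 11.6, 8.52 and 6.87, with Adgre1 the most abundant, Cd68 and Cd74 at 0 and no call. The endothelial list had 28 reads, with Pecam1 the most abundant, Cdh5, Kdr, Flt1 and Tie1 at 0 and no call, and summed to 4.87, 4.15 and 9.17 against 2.67, 1.89 and 6.01. The adipocyte list summed to 15.8, 7.27 and 17.2 against 17.8, 27.4 and 17.2, with Adipoq and Plin1 at 0, and its most abundant gene, Acaca, was called lower from 6, 4 and 3 reads against 10, 21 and 9 (unadjusted p = 0.037). That call was lost in 7 of 13 alternative fits, among them DESeq2 (0.107), library size alone (0.0789), the filter of at least 10 reads (0.061) and those without HFD replicate 2 (0.103), HFD replicate 3 (0.113) or ND replicate 2 (0.232). The cardiomyocyte list summed to 26.8, 32.2 and 48.1 against 34.7, 17.0 and 25.8, of which Slc8a1 held 171 of 182 reads and Myh6, Tnnt2, Actn2 and Myom2 were at 0. Skeletal muscle markers had 13 reads, 12 of them from Ttn, with 9 in HFD replicate 3 and 4 in ND replicate 1 and 8 of the 10 genes at 0.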

How the data were processed

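Per the study's methods, Cutadapt and FastQC served for trimming and quality control, TopHat-Fusion for finding back-splices among unmapped reads, and CIRCexplorer and CIRI for circRNA assembly. The submitters' processing notes name cutadapt and TopHat without versions. The genome build is not given in the sources used here, and 8296 of 8517 exonic circles could be built from exon ends of GENCODE vM21 on GRCm38, allowing a start 1 base late for entries named by Ensembl identifier. The deposited counts are unnormalized numbers of back-spliced reads for every circRNA in every library. The signal deposited beside them, SRPBM, is the same count divided by a depth that the authors set for the library, and dividing one by the other returned that depth. Columns with the authors' log2 fold changes, p-values and q-values between the diets were not used.

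After TMM normalization, counts were tested two-sided in edgeR 4.0.16 (glmQLFit, glmQLFTest; R 4.3.3), with the steps first tested on simulated data. Alternatives were DESeq2 1.42.0, library size alone, the authors' depth, limma 3.58.1 on log2(SRPBM + 13.6, the smallest non-zero value), other filters, entries as deposited, exonic circRNAs alone, a replicate block and each aorta left out. Exact permutation tests used scipy 1.17.1. The named circles are the leading circle of each gene, those with at least 10 reads and those called, and circRNA5804 and ciRNA329 were added after their values were seen. Of the other focal adhesion genes, the 3 with the most reads and those called are named. The members and lists were chosen with earlier results of these data known. Folds are lower bounds against a diet at 0, ratios with exact conditional intervals for totals of 1 to 3 reads, and left out where both diets averaged 3 reads or fewer. Replicate libraries were not copies of each other, with a chi-square between 1.86 and 2.71 times its degrees of freedom. Every one of the 1224 Ensembl identifiers matched a symbol. Libraries of mRNA were not analysed here, and the result of 1 marker list is not reported here.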

Additional observations from a re-analysis of the deposited data

How the results depend on the processing

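The counts of calls moved with the processing, and the cause was not tested. Against 90 circles, DESeq2 called 21, the filter of at least 10 reads 48 of 672 tested, and fits without 1 aorta 47 (without ND replicate 1) to 111 (without ND replicate 3), with 51 without HFD replicate 2 and 59 without ND replicate 2. Against 100 host genes, DESeq2 called 34, the filter 49, and fits without 1 aorta 49 (without ND replicate 3) to 118 (without HFD replicate 1). Against 1 member circle, DESeq2 called 0, limma 2 (105 in the table), entries as deposited 4 (104 in the table), and fits without 1 aorta 0 (without HFD replicate 3) to 2 (without ND replicate 3), where circRNA772 and circRNA668 were called in place of circRNA8112. circRNA668 of Lpp had 0, 0 and 0 reads under HFD against 1, 2 and 0 under ND. Both circRNA772 and circRNA668 passed the filter through ND aortas alone, and no difference is concluded from their calls. Against 1 member gene, DESeq2, library size alone and the filter called 2, Ptk2 and Tns3, and fits without 1 aorta 0 (without ND replicate 1 or 3) to 1. With the replicate block, 30 circles and 41 genes were called. Deviations of same-numbered aortas from their diet mean correlated at -0.049, -0.056 and -0.042 over 200 circles. No pairing by number was seen, but with 3 aortas per diet and low counts this check cannot exclude one. The authors' depth moved the median log2 fold change of circles to -0.23, and DESeq2 that of genes to 0.0075. Without a filter the median of the 9548 circles was -1.01, and that of the 1381 found in 3 or more aortas was -0.27. Over 17 named circles and genes, 227 alternative fits kept direction and call in 185, lost the call in 31, gained one in 7 and changed sign in 4. The 4 were of Sorbs2, at 0.044 with DESeq2, 0.050 with library size alone, 0.045 without HFD replicate 3 and 0.074 without ND replicate 1. All its fits without 1 aorta ranged from -0.32 to 0.074. The members had 302 reads over 57 circles. The 33 circles seen in 1 aorta were tested only in the fit without a filter, where circRNA8112 was the only member circle called.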
